A study of Homo sapiens with 7 samples.

Results

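Oncofetal liver genes are, in general, genes that are active in the fetal liver, are lower or silent in the adult organ and are often active again in liver tumors. No fetal or adult liver was measured here, so whether this holds for each gene of the set was not tested. The 10 genes described here are IGF2, H19, GPC3, DLK1, IGF2BP1, IGF2BP2, IGF2BP3, LIN28B, PEG10 and SALL4, and all 10 were found by their symbols, in 11 of the 30032 rows of the expression table of HepG2. HepG2 is an established human liver cancer cell line, and a single line stands here for the disease. The 7 samples comprised RNA-Seq of total RNA after removal of ribosomal RNA, a native MNase-Seq map of nucleosomes and ChIP-Seq of 5 histone marks (the activation marks H3K4me3, H3K9ac and H3K27ac, and the repressive marks H3K9me3 and H3K27me3), with 1 library per assay and with no treatment or control cells named in the labels. The expression values are in FPKM (fragments scaled to transcript length and library size) in 2 columns of the RNA-Seq sample, called run 1 and run 2 here, and whether these are separate cultures is not given in the sources used here. With 1 library per assay there is no replicate check on any count of marked positions, and no P value was computed.

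Several of these genes act in the same growth pathway. IGF2 is a growth factor of the fetus, GPC3 is a heparan sulfate proteoglycan of the cell surface, and DLK1 is a membrane protein of liver progenitor cells that resembles the ligands of Notch. IGF2BP1, IGF2BP2 and IGF2BP3 bind mRNAs, that of IGF2 among them, LIN28B blocks the maturation of the let-7 microRNAs, and SALL4 is a zinc finger transcription factor of stem cells. H19, DLK1, IGF2 and PEG10 are imprinted, which means that the copies from the parents are not used equally. IGF2, DLK1 and PEG10 are normally read from the paternal copy and H19 from the maternal copy, and the values here do not tell the copies apart.

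A nucleosome position counted as marked when the list of a histone mark held a peak at it. H3K4me3 is typical of active gene starts, H3K9ac and H3K27ac of active starts and enhancers, H3K27me3 of silencing by Polycomb proteins and H3K9me3 of compact chromatin. Positions with H3K4me3, H3K9ac and H3K27ac and no other mark are called trivalent, or "T". Distances run from the listed start of a locus to the middle of the position, with positive values in the direction of transcription. The window of a gene is its listed locus plus 20 kb on either side. Locus coordinates are those of hg19, the build in the submitters' processing notes.

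RefSeq promoter sequences (GRCh38.p14) were found for 4 of the 10 genes, H19, IGF2BP2, IGF2BP3 and LIN28B. The 250 bases before the RefSeq start are printed 5′ to 3′, because the listed starts of these genes differ in their marks: the listed starts of H19 and LIN28B had none within 2 kb, and those of IGF2BP2 and IGF2BP3 carried "T". The sequences come from another build than the listed starts and were not placed on them. The marks are therefore not assigned to the printed bases. Capitals mark 3 motifs, the GC box (GGGCGG), the CCAAT box (CCAAT) and the TATA box (TATAAA), each searched on both strands. LIN28B has 2 starts in this table, 16142 bases apart, and the bases before them lie at chr6:104940715-104940964 and chr6:104956857-104957106 on the plus strand. Those of IGF2BP2 are on the minus strand at chr3:185825043-185825292, IGF2BP3 on the minus strand at chr7:23470492-23470741, and H19 on the minus strand at chr11:2001267-2001516.
LIN28B, first start: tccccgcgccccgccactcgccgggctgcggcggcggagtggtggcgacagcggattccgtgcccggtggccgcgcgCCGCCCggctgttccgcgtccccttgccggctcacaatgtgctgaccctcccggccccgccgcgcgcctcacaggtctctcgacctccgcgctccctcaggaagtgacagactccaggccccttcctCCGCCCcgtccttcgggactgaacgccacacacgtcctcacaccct
LIN28B, second start: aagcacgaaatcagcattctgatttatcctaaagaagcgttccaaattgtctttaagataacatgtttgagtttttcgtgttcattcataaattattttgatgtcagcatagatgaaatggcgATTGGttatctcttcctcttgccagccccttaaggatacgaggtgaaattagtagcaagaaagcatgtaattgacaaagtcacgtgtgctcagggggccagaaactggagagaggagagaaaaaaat
IGF2BP2: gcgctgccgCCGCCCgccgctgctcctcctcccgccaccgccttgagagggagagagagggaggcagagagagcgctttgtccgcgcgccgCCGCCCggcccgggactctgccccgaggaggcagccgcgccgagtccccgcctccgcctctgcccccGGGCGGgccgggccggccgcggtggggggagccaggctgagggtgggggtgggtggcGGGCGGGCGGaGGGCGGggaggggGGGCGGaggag
IGF2BP3: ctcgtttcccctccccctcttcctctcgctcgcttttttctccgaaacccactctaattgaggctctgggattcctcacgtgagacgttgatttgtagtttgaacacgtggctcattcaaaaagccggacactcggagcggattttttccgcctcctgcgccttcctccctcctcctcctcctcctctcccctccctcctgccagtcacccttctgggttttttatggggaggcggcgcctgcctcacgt
H19: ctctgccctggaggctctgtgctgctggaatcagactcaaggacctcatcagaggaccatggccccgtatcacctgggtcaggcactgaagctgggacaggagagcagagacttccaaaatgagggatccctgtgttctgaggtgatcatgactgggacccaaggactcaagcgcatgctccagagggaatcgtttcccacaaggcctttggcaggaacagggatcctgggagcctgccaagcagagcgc

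The promoters differed widely in CpG content. The first start of LIN28B had 33 CpG and 73.6% G or C, and that of IGF2BP2 had 32 CpG and 81.6%. The second start of LIN28B had 6 CpG and 38.4%, H19 had 4 CpG and 58.0%, and IGF2BP3 had 15 CpG and 56.8%, beside a median of 11 CpG over 34788 promoters of the same length. GGGCGG was found 7 times at IGF2BP2, with overlapping matches counted, and 2 times at the first start of LIN28B, and it is held by 42.6% of all these promoters. CCAAT was found 1 time, at the second start of LIN28B, and is held by 32.0%. TATAAA was not found in the 5 sequences and is held by 10.8%. A second start of IGF2BP2 in the table, 3900 bases from the first, had 2 CpG and held 1 match each to TATAAA and CCAAT.

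Of the 10 genes, 9 had a mean FPKM of at least 1, beside 51.4% of the 22065 named loci, which are the loci of the table with a gene symbol and a known strand. The median FPKM of all 10 genes, SALL4 included, was 48.2, beside 1.26 over all named loci and 11.9 over those with an FPKM of at least 1. Levels spanned from GPC3 at the top to SALL4 at the bottom. The 8 genes above 5 FPKM differed between the runs by a log2 ratio of 0.00164 to 0.134 in size, while the median size of this ratio was 0.0632 at expressed named loci and its 95th percentile was 0.324. The plot of FPKM by gene shows the values of both runs.

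**Figure D1:**
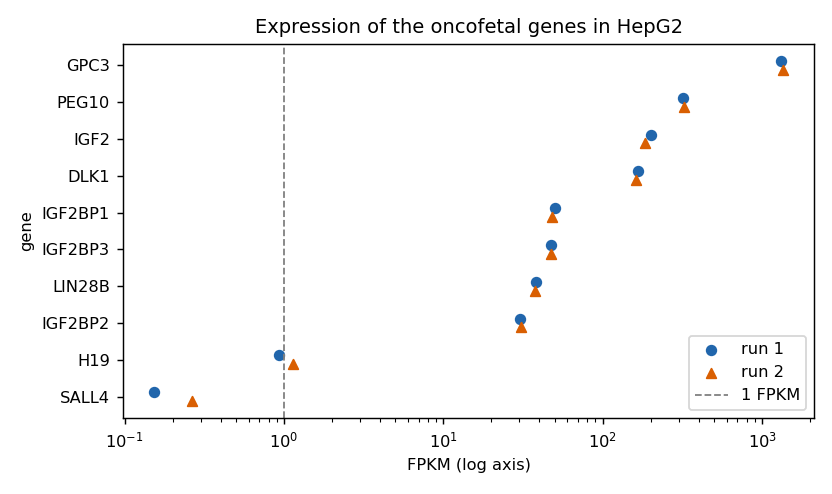
Expression of the 10 oncofetal genes in HepG2, with FPKM on a log axis; circles are run 1, triangles are run 2, and the dashed line is 1 FPKM. GPC3 lies above 1000 FPKM, 7 genes lie between 30.2 and 323 FPKM, and H19 and SALL4 lie near or below the line.

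Among the growth factor and surface genes, GPC3 was read at 1310.4 FPKM in run 1 and at 1352 in run 2, which put it at rank 37 of the named loci. IGF2 had 201 and 183, in a row that it shares with INS and INS-IGF2, so reads of INS transcripts cannot be told apart in it. DLK1 had 167 and 162. GPC3 was thus 4.16 times as high as the next gene, PEG10, which codes for a protein derived from a retrotransposon and had 318 and 323. The level of PEG10 was 1.67 times that of IGF2, and IGF2 and DLK1 were closer, with a ratio of 1.17.

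The RNA-binding protein genes formed a middle group. IGF2BP1 was at 50.01 FPKM in run 1 and at 47.9 in run 2, IGF2BP3 had 47.4 and 47.3, and LIN28B had 38.2 and 37.8. IGF2BP2 had 30.2 and 30.6 in its row on the minus strand, while a second row with the same coordinates on the plus strand is listed at 0 in both runs. Each of these 4 levels was above at least 88.2% of the named loci. The steps between neighbours in this group and the step from IGF2 to DLK1 were at most 0.321 on the log2 scale, within the 95th percentile of the difference between runs at expressed loci, although the runs of neighbouring genes did not overlap at any of these steps.

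H19 and SALL4 stood apart at the low end. H19, an imprinted noncoding RNA that lies 131274 bp from IGF2 on chromosome 11 and shares its row with MIR675, was at 0.932 FPKM in run 1 and at 1.14 in run 2, on either side of the limit of 1. The mean of IGF2 was 186 times that of H19. SALL4 had 0.153 and 0.263, above 40.4% of the named loci. The level of IGF2BP2, the lowest of the middle group, was 29.4 times that of H19.

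In the windows of the 10 genes, 236 of 6927 nucleosome positions were marked, or 3.41%, beside 2.25% in the windows of all named loci and 3.0% in those of expressed named loci. Windows of neighbouring loci overlap in these sums. "T" made up 73 of the 236 and H3K27ac alone 72, followed by H3K4me3/H3K9ac with 21, H3K9ac/H3K27ac and H3K4me3 alone with 20 each, and H3K9ac alone with 13. All 10 windows held H3K4me3 (77.0% of all named loci), H3K9ac (77.3%), H3K27ac (71.7%) and at least 1 "T" (67.0%). Among expressed named loci the shares were 98.9%, 98.8%, 97.5% and 95.8%, so that a count of 10 lies close to this background.

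No window of the 10 genes held an H3K27me3 position, beside 39.5% of all named loci and 29.4% of the expressed ones with at least 1. SALL4, the single gene of the 10 with a mean under 1 FPKM, had 0 H3K27me3 positions, while 50.2% of named loci under 1 FPKM had at least 1. With 50 kb on either side in place of 20 kb, 4 genes had 1 H3K27me3 position each, namely IGF2, GPC3, IGF2BP3 and LIN28B. The share of named loci at 50 kb is not given here. H3K9me3 was found in 3 windows, beside 38.6% of all named loci and 35.3% of the expressed ones, with 5 positions at GPC3, 4 at IGF2BP2 and 1 at PEG10. Of the named loci of at least 150 kb 78.3% had H3K9me3, and of the 3 genes of that length GPC3 (451 kb) and IGF2BP2 (191 kb) had it, while IGF2BP3 (172 kb) had 0 positions. LIN28B (148 kb) also had 0, and PEG10, with 1, is a locus of 13.4 kb. The listed lengths of IGF2BP2, IGF2BP3 and LIN28B may be those of merged intervals, since other loci share their coordinates.

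Within 2 kb of the listed start, 5 of the 10 genes had at least 3 "T", beside 26.7% of all named loci and 47.2% of the expressed ones. These were IGF2BP2 with 7, PEG10 with 6, DLK1 and IGF2BP3 with 5 each and IGF2BP1 with 3. GPC3 had 2 "T", and IGF2, H19, LIN28B and SALL4 had 0. At least 1 "T" was found at 6 genes (41.6% of all named loci, 71.6% of the expressed ones) and H3K4me3 at 7, SALL4 included (51.6% and 79.1%, with 22.5% of the loci under 1 FPKM). No marked position at all was found there at IGF2, H19 and LIN28B, beside 39.8% of all named loci and 17.9% of the expressed ones. The map around the listed starts shows these arrangements.

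**Figure D2:**
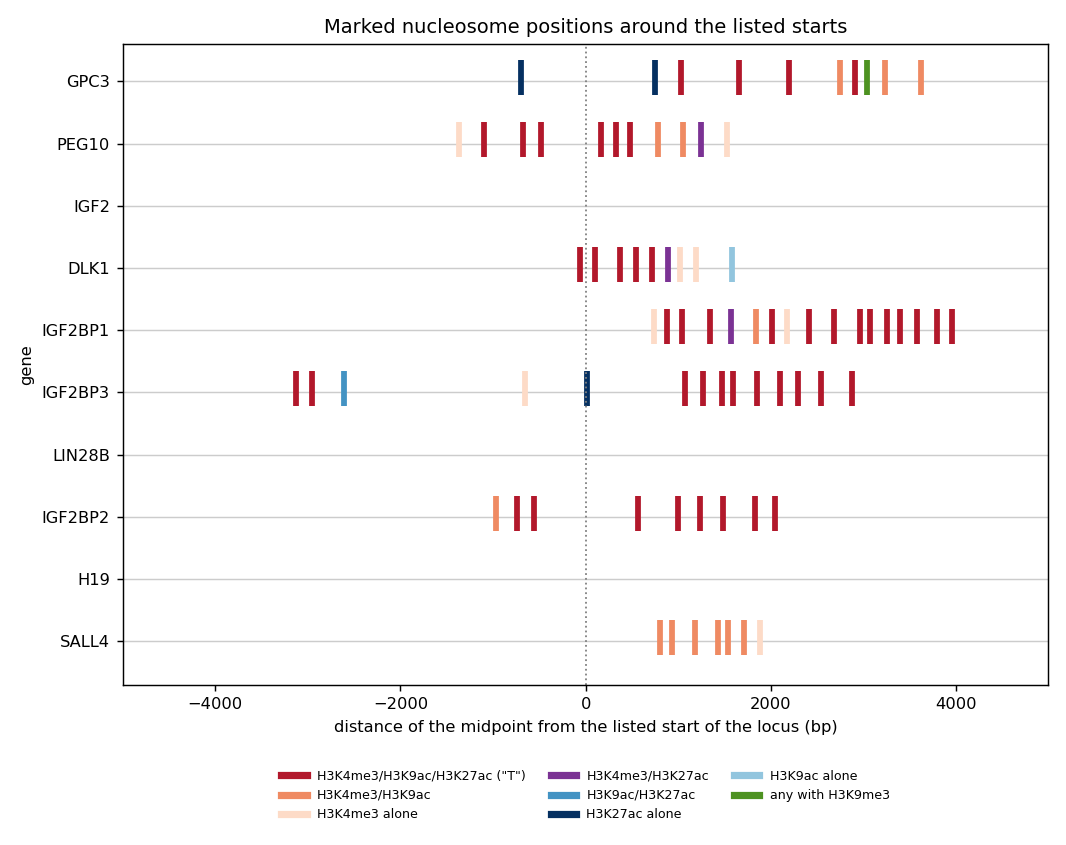
Marked nucleosome positions within 5 kb of the listed start of each gene, ordered from the highest to the lowest FPKM; the horizontal axis is the distance in bp and each colored bar is 1 position with the combination of marks in the key. Red bars ("T") lie mostly downstream of the start, IGF2, LIN28B and H19 have no bar, and SALL4 has 7 bars, of which none is "T".

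DLK1 is listed on chromosome 14 from 101193002 to 101202775 on the plus strand. Its 5 "T" lay from -65 to 722 bp with no other combination of marks between them, followed by H3K4me3/H3K27ac at 892 bp, H3K4me3 alone at 1025 and 1190 bp and H3K9ac alone at 1580 bp. Beyond the end of the locus, from 23245 to 25105 bp, a further 7 positions carried H3K27ac, 4 of them alone and 3 with H3K9ac, and none carried H3K4me3. MEG3, the maternally read noncoding RNA of the same imprinted region, was at 0.0231 FPKM in run 1 and at 0 in run 2, with 0 positions with H3K4me3 or "T" within 2 kb of its listed start. RTL1 was at 0 and 0.00953, and MEG8 and DIO3 of this region are listed at 0 in both runs.

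PEG10 starts on chromosome 7 at 94285637, head to head with SGCE, an imprinted gene for a sarcoglycan, with 62 bp between the loci. The stretch from -1365 to 1525 bp held 11 marked positions with H3K4me3 at each, and 6 of them were "T". The "T" at -1093, -680 and -485 bp are closer to the start of SGCE and those at 168, 330 and 476 bp to the start of PEG10. SGCE had an FPKM of 22.5 and 19.9, against 318 and 323 for PEG10, so the level differed widely across a start region with 3 "T" on either side.

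GPC3 is listed on chromosome X from 132669753 to 133121190 on the minus strand. The gene with the highest level of the 10 had 2 "T" within 2 kb, at 1028 and 1658 bp. From 753 to 3628 bp there were 9 marked positions, 4 of them "T", and the position at 3038 bp carried H3K9me3 together with the 3 activation marks. H3K27ac alone was found at -697 and 753 bp on either side of the start, and the widest step between neighbouring nucleosome positions within 1 kb of the start was 670 bp, beside a median of 395 bp at expressed named loci. The other H3K9me3 positions were at 55118, 305468, 436026 and 445123 bp. Of the 724 named loci with an FPKM of at least 100, 61.2% had at least 3 "T" within 2 kb and 21.1% had 0.

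The listed starts of the IGF2BP genes all carried "T", in different arrangements. IGF2BP2, on chromosome 3 from 185352584 to 185543253, had 2 "T" upstream, at -739 and -559 bp, and 6 downstream, from 561 to 2051 bp. Between these groups the widest step between nucleosome positions was 1120 bp. IGF2BP1, on chromosome 17 from 47072227 to 47133518, had a single long stretch from 740 to 3957 bp. In it all 17 marked positions carried H3K4me3 and 13 were "T". An unnamed locus on the minus strand shares the coordinates of IGF2BP1, so its listed start may be the edge of a merged interval. IGF2BP3, on chromosome 7 from 23338811 to 23510632, had 9 "T" from 1072 to 2883 bp, with no other combination between them, and 2 more at -3130 and -2950 bp. Their protein products are close relatives, and IGF2BP1 and IGF2BP3 differed in level by a ratio of 1.03.

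IGF2BP3 had the most marked positions of the 10 genes, with 62 of 1088 (5.70%, 95% interval 4.40 to 7.25, exact Clopper-Pearson, counting error only). This interval and those given below treat positions as independent, although marked positions lie in stretches, so they may be too narrow. H3K27ac was at 55 of the 62, and 33 carried H3K27ac alone, a number above that of 99.5% of the named loci. This rank is of counts and does not allow for the size of the window. The window had 1088 positions, beside a median of 388 over all named loci, and its share of marked positions was above that of 85.8% of them. Of these 33, 24 lay inside the locus, in groups, with 5 positions from 112060 to 113088 bp, 7 from 133390 to 135665 bp and 5 from 149285 to 150885 bp. Part of the window belongs to neighbours. The 8 positions from 170605 to 172388 bp, 3 of them "T", reach to 154 bp from the start of C7orf30. This gene shares the coordinates of IGF2BP3 on the other strand and had an FPKM of 56.1 and 56.9. The listed locus of IGF2BP3 may therefore be a merged interval, and a position inside it need not lie in IGF2BP3. Another 3 "T" from -19890 to -19610 bp lie next to the start of RPS2P32. By the nearest named start, 11 of the 18 "T" belong to IGF2BP3.

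IGF2BP1 had 32 marked positions of 558 (5.73%, 3.96 to 8.0). Downstream of its long stretch, the marks were sparse, with 3 positions from 8920 to 9252 bp, 4 from 18430 to 19033 bp and 2 from 26390 to 26570 bp. Beyond the end of the locus, 2 "T" at 73800 and 73955 bp lay in a group of 6 positions with H3K27ac, at least 62930 bp from the start of the nearest named locus, B4GALNT2. IGF2BP2 had 29 marked positions of 1202 (2.41%, 1.62 to 3.45), of which 6 from 107371 to 108386 bp carried H3K27ac alone. The bars of marks in the window compare these genes with the others.

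**Figure D3:**
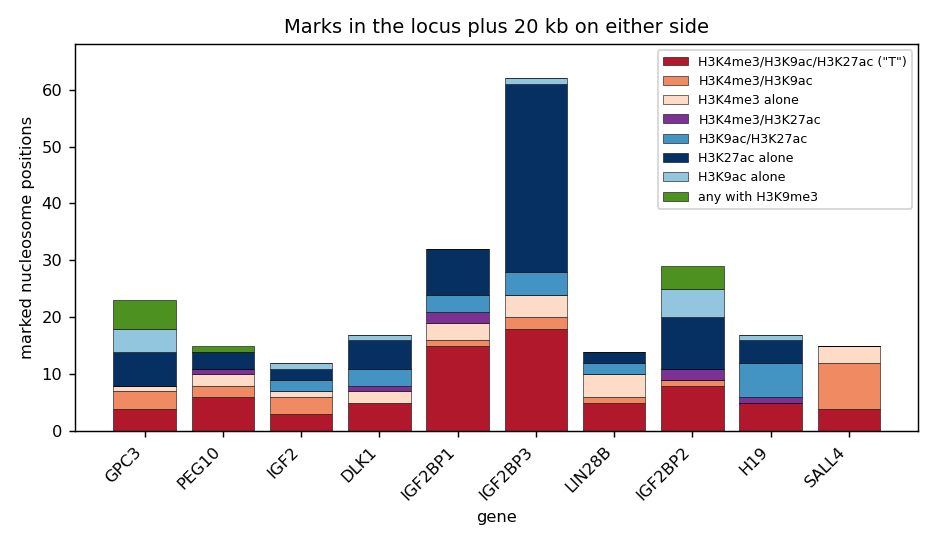
Number of marked nucleosome positions in the locus plus 20 kb on either side, by gene from the highest to the lowest FPKM; colors are the combinations of marks in the key and the windows differ in length. IGF2BP3 has 62 positions, 33 of them with H3K27ac alone, and SALL4 has 15 with 0 of that kind.

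At LIN28B the activation marks lay inside the listed locus and away from its start. The locus is listed on chromosome 6 from 105382767 to 105531230. Unnamed loci share these coordinates, so the listed start may be the edge of a merged interval rather than the start of LIN28B. The nearest marked positions to the listed start were H3K4me3 alone at 5393 bp and H3K4me3/H3K9ac at 6837 bp. The main stretch ran from 21460 to 24367 bp with 11 positions, 8 of them with H3K4me3, and its 5 "T" were at 22225, 22373, 22660, 23160 and 23370 bp. The sequences printed above come from another build and were not placed on these distances. They show that LIN28B has 2 starts in RefSeq 16142 bases apart, a CpG-rich one and a CpG-poor one further downstream. Which start gave the RNA measured here was not tested. Of 929 positions in the window, 14 were marked (1.51%, 0.826 to 2.52).

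IGF2 showed the same kind of distance. Its row spans the IGF2 and INS loci on chromosome 11 from 2150340 to 2182439, so the listed start is that of the merged locus. The 9 marked positions inside it lay from 21137 to 24467 bp, at 2157902 to 2161371 on the chromosome. The "T" were at 21412, 22377 and 22577 bp, and H3K4me3/H3K9ac followed at 23612, 24012 and 24152 bp. The loci with the same coordinates, IGF2AS and MIR483, had an FPKM of 0.129 and 0.0775 and of 0 in both runs, and TH next to it had 0.0407 and 0. Among these overlapping and neighbouring loci the IGF2 row had the highest level.

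H19 differed from IGF2 in that no marked position lay inside its locus, which runs from 2016406 to 2019065 on chromosome 11. All 17 marked positions of its window were outside it, and 8.21% of the window's 207 positions (4.86 to 12.8) were marked. The 5 "T" were at 7993, 8143, 8408, 8638 and 8835 bp, past the end of H19 and from 259 to 1101 bp downstream of the start of LOC100133545, a locus with an FPKM of 1.99 and 1.72. Upstream, 5 positions from -17927 to -16327 bp carried H3K27ac or H3K9ac and no H3K4me3. The 17 positions therefore do not describe the start of H19, and the 5 "T" are closest to another locus.

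SALL4, the lowest of the 10 genes, carried H3K4me3 at its start without H3K27ac. On chromosome 20 it is listed from 50398899 to 50419048 on the minus strand. H3K4me3/H3K9ac was found at 806, 929, 1186, 1426, 1536 and 1706 bp and H3K4me3 alone at 1881 bp. Neither H3K27ac nor H3K27me3 was found within 10 kb of this start. At least 6 such H3K4me3/H3K9ac positions within 2 kb occurred at 0.104% of all named loci and at 4 of the 10713 under 1 FPKM (0.0373%), a limit chosen after the count at SALL4 was seen. The 4 "T" in the window of SALL4 were at 34201 to 34861 bp, from 691 to 1351 bp downstream of the start of ATP9A, which had an FPKM of 4.91 and 4.63.

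**Figure D4:**
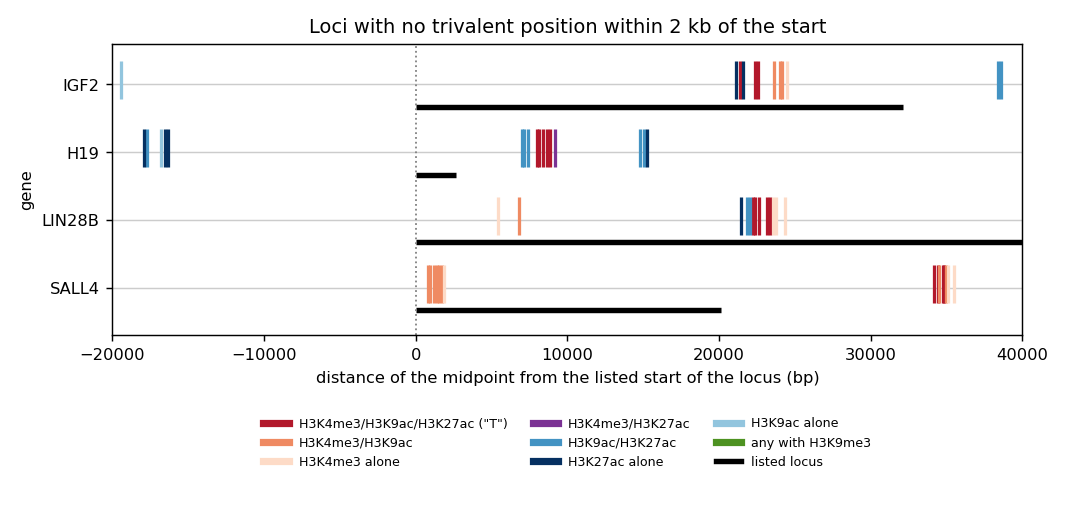
Marked nucleosome positions from 20 kb upstream to 40 kb downstream of the listed start for the 4 genes with 0 "T" within 2 kb of it; the horizontal axis is the distance in bp, colored bars are positions and black lines are the listed loci, that of LIN28B cut at the right edge. The "T" of IGF2 and LIN28B lie inside the locus, from 21412 bp on, and those of H19 and SALL4 lie beyond its end.

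At 8 of the 10 genes the level was above the upper quartile of named loci with the same number of "T" within 2 kb of the start, a limit that 25.0% of all named loci pass by construction and that was chosen after the values were seen. The exceptions were IGF2BP2 and SALL4. Loci with 0 "T" had a median FPKM of 0.0409 and an upper quartile of 0.997, while IGF2 and LIN28B with 0 "T" had means of 192 and 38.0 and H19 had 1.04, just past that quartile. H19 was below it in run 1 (0.932) and above it in run 2 (1.14), so that the count was 7 with run 1 alone. The class of 0 "T" rests on the listed start, and IGF2 and LIN28B had 3 and 5 "T" further inside their loci, where the start in use was not tested. Loci with 2 "T" had a median of 9.39 and an upper quartile of 23.5, and GPC3 had 1331. IGF2BP1, with 3 "T" and 49.0 FPKM, was past an upper quartile of 25.8. It had 13 "T" within 5 kb, so its class also depends on the listed start. At 5 "T" the median was 16.0 and the upper quartile 38.8, and DLK1 and IGF2BP3 had 165 and 47.3. Loci with 6 "T" had a median of 15.3, and PEG10 had 320.4. IGF2BP2, with 7 "T" and 30.4 FPKM, lay within the quartiles of its class, from 5.59 to 44.1.

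**Figure D5:**
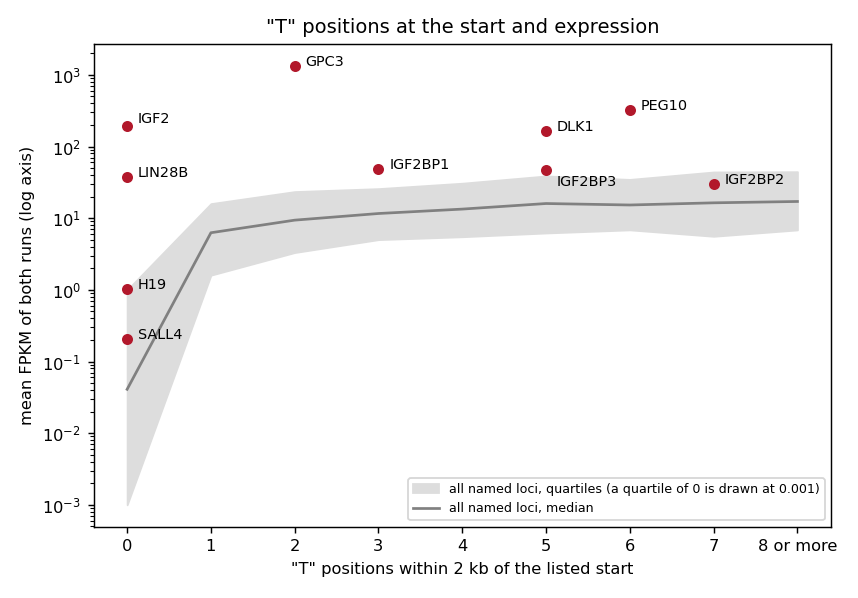
Mean FPKM of both runs on a log axis against the number of "T" positions within 2 kb of the listed start; red points are the 10 genes, the grey line is the median of all 22065 named loci with that number of "T" and the band runs between their quartiles. GPC3, IGF2, LIN28B, DLK1 and PEG10 lie farthest above the band, and IGF2BP2 and SALL4 lie inside it; a quartile of 0 is drawn at 0.001 FPKM.

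Most paralogs of these genes were lower than the member they resemble, and SALL1 and SALL2 were higher than SALL4. Of 12 measured outside the row of IGF2, 5 had an FPKM of at least 1, and 1 had at least 3 "T" within 2 kb, beside 51.4% and 26.7% of all named loci, the shares to read with the counts of the other lists too. Among the glypicans, GPC6 had 24.8 and 26.4 and GPC1 7.78 and 8.02, while GPC2 had 0.568 in both runs, GPC4 0.513 and 0.695, and GPC5 0.0722 and 0.112. GPC4, the neighbour of GPC3 on the X chromosome, had 2 H3K27me3 positions within 2 kb of its start, where GPC3 had 0, and GPC5 had 1. LIN28A, which shares the role of LIN28B, had 0.900 and 1.44 with 2 H3K27me3 positions within 2 kb of its start. H3K27me3 was found there at these 3 of the 12 paralogs, and the share over all named loci is not given here. Of the SALL genes, SALL1 was the highest with 7.40 and 7.01 and 8 "T", SALL2 had 1.94 and 2.31, and SALL3 had 0 and 0.0369. DLK2 had 1.03 and 0.937, and IGF1 had 0.113 and 0.106.

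Around the imprinted members, 11 of 20 measured neighbours had an FPKM of at least 1 and 6 had at least 3 "T" within 2 kb. CTSD, a lysosomal protease gene, had 144 and 139.8 with 7 "T", and MRPL23, a mitochondrial ribosomal protein gene near H19, had 36.2 and 37.4 with 6 "T". CDKN1C, a maternally read inhibitor of the cell cycle, had 0 and 0.0399. Among receptors and binding proteins of IGF2, 7 of 9 had at least 1 FPKM. IGF2R, the receptor that clears IGF2, was the highest with 61.3 and 59.9, followed by the secreted binding protein IGFBP1 with 52.9 and 56.8. IGF1R, the signaling receptor, had 8.96 and 8.86 with 9 "T", and IGFBP3 and IGFBP5 were the lowest with 0.472 and 0.408 and with 0.311 and 0.189.

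Of 13 measured targets and partners of LIN28B and the IGF2BP proteins, 11 had at least 1 FPKM and 7 had at least 3 "T". ACTB had 784 and 749 and HMGA1 158.6 and 152, and the lowest were CD44 with 0.322 and 0.243 and MYCN with 0.0790 and 0.0555. HMGA2, a chromatin protein gene held down by let-7, had 96.7 and 103.7, and TRIM71, a target of let-7 in early development, had 27.8 and 28.7, both with 0 "T" within 2 kb of the listed start. Their windows held 12 and 13 "T", beside a median of 6 over expressed named loci. These are counts that do not allow for the sizes of the windows, which are not given here. Among 12 regulators and relatives of AFP, 11 had at least 1 FPKM and 5 had at least 3 "T". AFP itself, the best known oncofetal protein of the liver, had 3732 and 3864 with 0 "T", and ALB had 9933 and 10088 with 2. ZHX2 and ZBTB20, repressors of AFP in the adult liver, had 7.64 and 8.18 and 2.12 and 1.48. AFM and NR5A2 were the lowest of this list, with means of 1.51 and 0.336.

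By the 5 counts of marks within 2 kb of the start and the level, the locus most like each gene, out of 13662 named loci with 1 symbol and their own coordinates, was ITGB1 for IGF2, HSD11B1 for H19, RPS27 for GPC3, SLC39A14 for DLK1, HYOU1 for IGF2BP1, PTPRK for IGF2BP2, ACTN1 for IGF2BP3, SCARB2 for LIN28B, RAN for PEG10 and WDR31 for SALL4. For IGF2, H19 and LIN28B all 5 counts are 0, so that the level alone chose these. The distance to the closest locus was 1.58 for GPC3, 1.44 for PEG10 and 1.88 for SALL4, which makes these matches looser. For the other genes it was at most 0.127. The likeness is over 6 measures in 1 cell line and describes the values only. For SALL4 the closest locus, WDR31, had 7 H3K4me3 and 5 H3K9ac positions, and unlike SALL4 it had 1 with H3K27ac.

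The label of the cells was compared with marker genes. All 10 hepatocyte markers had at least 1 FPKM, from 56.6 for FGB to 10010.7 for ALB as means. Of 5 leukocyte markers, 2 had at least 1 FPKM, and PTPRC and CD3E are listed at 0. The 2 are LYZ with 1148 and 1198, and CD68, whose row holds further genes, and their part in the values of the 10 genes was not tested. Of 5 fibroblast markers, 2 had at least 1 FPKM, the highest being PDGFRB with 2.06 and 1.95, and 0 of 4 endothelial markers did. The summed FPKM was 18869 and 19217 over the hepatocyte markers, 1689 and 1742 over the leukocyte markers, 3.79 and 3.31 over the fibroblast markers and 1.20 and 0.989 over the endothelial markers.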

How the data were processed

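HepG2 was analysed in 7 samples with 1 library each. Chromatin for ChIP-Seq was crosslinked and sonicated, while nucleosome positions come from native chromatin. Per the submitters' processing notes, reads were aligned to hg19, with BWA for ChIP-Seq and MNase-Seq, and the notes of the RNA-Seq sample name TopHat2 2.1.0, Bowtie, HOMER 4.7 and edgeR. The authors deposited nucleosome positions called by DANPOS and NUCLIZE peaks (P value and false discovery rate at most 0.01, at least 4-fold over background) as coordinates without heights, so the depth behind a position is unknown. The authors deposited FPKM in 2 columns, in a table of the Cuffdiff layout, with read depth not given. The same table holds the authors' fold changes and P and q-values between those 2 columns, which were left out here.

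All 319086 peaks carried the identifier of the position they overlap, and a position was counted by its midpoint. The mean of both FPKM columns was used, summed over the rows of a gene, and a log2 ratio between runs has a pseudocount of 0.01. Background shares are over 22065 named loci on chromosomes 1 to 22, X and Y with a usable status and a strand. Strands were read from how the loci are numbered in the table and matched those of RefSeq for 8541 of 8594 loci checked (99.4%). A locus shared by several genes has 1 listed start, which need not be the start in use. IGF2, IGF2BP1, IGF2BP2, IGF2BP3 and LIN28B share their coordinates with at least 1 other locus. Their listed starts may therefore be edges of merged intervals. Whether the libraries keep the strand is not given, so reads of overlapping loci on opposite strands may not be told apart.

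A stretch joins marked positions at most 1 kb apart. The genes named are the 10 members, their paralogs, the 2 highest and 2 lowest of each list and the locus closest to each member by 6 measures; C7orf30, RPS2P32, LOC100133545, ATP9A, B4GALNT2, IGF2AS, MIR483, SGCE, TH and other single genes of the lists were named after their values were seen. The members and lists were chosen with earlier results of these data known. TUT4 has no row under that symbol and ZCCHC11, its older symbol, is in the list. The loci beside SALL4 in the count of silent loci with H3K4me3/H3K9ac are not reported here. No test was possible. Counting was tested on simulated data. Alternatives were other flanks, start windows, limits, matching of peaks, FPKM columns and gene sets. The tools were pandas 2.3.3, numpy 2.4.6, matplotlib 3.10.9 and scipy 1.17.1 under Python 3.11.15.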

Additional observations from a re-analysis of the deposited data

How the results depend on the processing

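Of the recomputed counts of genes, 27 stayed within 1.5 times the value given and 4 did not. The number of genes with at least 3 "T" near the start was 3 within 1 kb, in place of 5 within 2 kb. It was 9 within 25 kb, a window added after the data were seen, since "T" of IGF2, LIN28B, GPC3 and H19 lie further away. Those of H19 are closest to LOC100133545. Shares of all named loci for the windows of 1 kb and 25 kb are not given here, so these counts have no background beside them. With 50 kb on either side, H3K27me3 was found at 4 genes in place of 0 and H3K9me3 at 5 in place of 3. Shares of all named loci with flanks other than 20 kb are not given here, so counts at those flanks have no background beside them. With no flank, "T" was left at 8 of the 10 genes, since those in the windows of H19 and SALL4 lie outside the locus. It was left at 7 when a "T" counted for the gene with the nearest named start, also an added setting. IGF2 was lost there too, because its "T" are nearest to the listed start of IGF2AS. That start is the other edge of the same merged coordinates. The number of genes at or above the limit of expression was 8 with run 1 alone, because of H19, and from 8 to 10 with limits of 5 and 0.1 FPKM. With named loci of 1 symbol and their own coordinates as background, 56.4% had a "T" in the window in place of 67.0%. The number of marked positions per gene stayed within 1.5 times in 35 of 50 recomputations, among them all those with other rules of overlap. With 50 kb on either side it was higher at 7 genes, for example 40 in place of 17 at H19, 33 in place of 15 at PEG10 and 57 in place of 32 at IGF2BP1. With 10 kb it was lower at H19, DLK1 and SALL4, and with no flank also at IGF2BP3 and PEG10, with 0 left at H19 and 7 at SALL4. The level of SALL4 was above 23.3% of named loci once those at 0 were left out. No paired analysis was possible because each assay has 1 library. Peak lists without heights allow no stricter threshold, and an absent mark means that no peak passed the authors' limits.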

Other observations

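Of 8 markers of liver progenitors, 5 had an FPKM of at least 1 and 1 had at least 3 "T" within 2 kb, beside 51.4% and 26.7% of all named loci, and counts over 8 genes do not set the list apart from these shares. KRT19 and EPCAM, epithelial genes of bile duct and progenitor cells, were the highest with 113 and 105.7 and with 97.2 and 96.6 in the 2 runs, both with 0 "T" at the listed start. The window of EPCAM held 16 "T" and that of KRT19 held 0. SOX9, a transcription factor of the same cells, had 40.1 and 39.5, and KRT7 and NCAM1 were the lowest with means of 0.109 and 0.0516.

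Of 8 pluripotency genes, 3 had at least 1 FPKM, beside the same 51.4%, and the median of the 8 was 0.743 FPKM, beside 1.26 over all named loci. The 3 were POU5F1 at 3.39 and 2.68 and TDGF1 at 1.73 and 2.57, and LIN28A. SOX2 and PRDM14 were the lowest, with means of 0.247 and 0.0438. LIN28B, in contrast to LIN28A, had a mean of 38.0, and HMGA2 one of 100.2.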
